A study of Mus musculus and Homo sapiens with 8 samples.

Results

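The comparison described here is that of bone marrow LSK cells from Anp32b knockout mice (KO) with those from wild-type mice (WT), taken as the 4 mouse libraries among the 8 of the study, 2 per group. LSK cells lack the markers of mature blood lineages and are positive for Sca-1 and c-Kit. This sorting gate contains the stem cells of the blood system together with multipotent progenitors. All animals were C57BL/6, the WT group carried the genotype label WT and the KO group Anp32b-KO. The allele, any Cre driver, the deleted exons, the age of the mice and the number of animals behind a library are stated nowhere in the labels. It is also not stated whether the 2 libraries of a group came from separate animals, so p-values reflect only how much these libraries vary, and that variation may be technical. The members are all 17097 genes listed in the 4 tables, of which 14598 passed the filter on low counts and were tested. That filter asks for reads in as many libraries as a group holds, so a gene read in a single group can pass it.

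ANP32B is an acidic nuclear protein with leucine-rich repeats that binds histones and acts as a histone chaperone. The title of the study places it beside p53, the transcription factor that halts the cell cycle or starts apoptosis under stress, and p53 activity is known to restrain hematopoietic stem cells. Within the LSK gate stem cells are mostly out of cycle, while multipotent progenitors divide and begin to express genes of the myeloid, erythroid and lymphoid lineages at low levels.

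The libraries held 15683480 (WT 1), 10549358 (WT 2), 12117196 (KO 1) and 14085985 (KO 2) counts, so 3 counts, the floor used for a gene read at 0, stand for 0.196 to 0.286 CPM. All levels below are CPM, counts relative to the library size after TMM scaling within these 4 libraries. The WT libraries were less alike than the KO libraries. Of the tested genes 918 were at least 2-fold apart between WT 1 and WT 2, against 389 between KO 1 and KO 2, and the Spearman correlation across genes was 0.977 for the WT pair and 0.987 for the KO pair. WT 2 lay nearer to both KO libraries (0.987 and 0.984) than WT 1 did (0.979 and 0.979). For most named genes the level is therefore given in every library, and for most lists the median against each WT library by itself.

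The gate markers were read in all 4 libraries. Kit, the receptor that defines the gate, stood at 334 and 371 CPM in WT 1 and WT 2 and at 399 and 355 CPM in KO 1 and KO 2. Ly6a, which encodes Sca-1, stood at 60.2 and 45.5 CPM in WT and at 37.8 and 43.4 CPM in KO. Both genes were used to sort the cells, so their levels describe the gate. Among the markers used to exclude mature cells, Cd3e (T cells) was read at 0.569 to 2.55 CPM and Ly6g (neutrophils) at 0.419 to 2.36 CPM. Itgam, the integrin subunit CD11b of myeloid cells, was the exception at 122 and 113 CPM in WT and 141 and 138 CPM in KO. Transcripts of the immunoglobulin loci were abundant as well, with Ighm at 7661 and 1638 CPM in WT and 2768 and 3319 CPM in KO. Every library held reads of both Xist, the X-inactivation RNA (661 to 983 CPM), and the Y-linked gene Ddx3y (64.2 to 79.6 CPM), a pair looked at after the values were seen.

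Anp32b itself (ENSMUSG00000028333.10, GRCm38 chromosome 4, plus strand) was read at 793 CPM in WT 1 and 730 CPM in WT 2, against 201 CPM in KO 1 and 248 CPM in KO 2. Both KO libraries lay far below both WT libraries, at a log2 fold change of -1.76 (SE 0.17). Its adjusted p of 0.148 (edgeR quasi-likelihood test) was the smallest of all genes and did not pass the threshold of 0.05. Values are per gene and the deleted exons are not stated, so the source of the reads left in KO cannot be told and was not tested. The paralogs that share the histone-binding fold differed little. Anp32a stood at 365 and 376 CPM in WT and 386 and 411 CPM in KO, a log2 fold change of 0.10 (SE 0.14). Anp32e, a chaperone that removes the histone variant H2A.Z, stood at 272 and 244 CPM in WT and 284 and 283 CPM in KO, a log2 fold change of 0.14 (SE 0.14). Among the 25 genes of the ANP32 and histone chaperone list, the median difference was -0.039 on the log2(CPM + 0.5) scale.

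No gene passed the threshold in the main edgeR fit of all 4 libraries. Of the 14598 tested genes 0 (0%) had an adjusted p under 0.05 with edgeR's quasi-likelihood test. Before adjustment 657 (335 with higher and 322 with lower KO values) stayed under 0.05, where a share of 0.05 of the tested genes is 729.9. Other fits of the 4 libraries did call genes. DESeq2, given all 17097 listed genes, called 12, limma-voom with sample weights 2 and edgeR with a replicate block 15. With 1 WT library left out, 26 genes passed without WT 1 and 583 without WT 2. In those fits the spread comes from the KO pair, which was the closer pair, and the lone WT library is assumed to vary like it, so the calls are no measure of the spread between WT libraries. Of 15 genes called in both fits, 9 had opposite signs in them, Rpph1 and Rn7sk among these, and 6 had the same sign, Anp32b, Echdc2, Chil3 and Pyhin1 among these. The members are therefore described by their values. Both KO libraries lay above both WT libraries for 2583 genes (17.7%) and below both for 2270 genes (15.6%). Were the 4 labels exchangeable, a share of 0.333 of genes would fall into these sets together, so the counts are no measure of genes that differ by genotype. Scaled by library totals alone the split was 3285 higher and 1682 lower. The shares of 17.7% and 15.6% are those against which the counts of each list below are to be read. With the additional condition that the means lie at least 2-fold apart, 56 genes (0.384%) were higher and 82 (0.562%) lower.

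The widest gap between the groups among genes averaging 50 counts or more belonged to Echdc2, which encodes a mitochondrial protein related to enoyl-CoA hydratases. It was read at 1.11 CPM in WT 1 and 15.3 CPM in WT 2, against 184 CPM in KO 1 and 186 CPM in KO 2. The KO libraries were nearly equal, while the WT libraries differed from each other by over 10 CPM. Acot1, an acyl-CoA thioesterase, stood at 10.4 and 10.9 CPM in WT and 23.2 and 21.2 CPM in KO, a log2 fold change of 1.06 (SE 0.20). Here the members of both groups were close together and the groups were well apart. The neighbouring thioesterase gene Acot2 stood at 10.9 and 12.5 CPM in WT and 16.8 and 15.6 CPM in KO. Acot1 and Acot2 are near-identical copies, so the split of reads between them is uncertain.

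Other genes with wide gaps and higher KO values were of several kinds. Hist3h2ba, an H2B histone gene, stood at 2.03 and 1.72 CPM in WT and 7.15 and 8.24 CPM in KO. Hoxb2, a homeobox transcription factor, stood at 2.29 and 2.57 CPM in WT and 6.09 and 5.03 CPM in KO. Gas6, the ligand of the TAM receptor kinases, stood at 5.24 and 7.05 CPM in WT and at 12.5 CPM in each KO library. Gulp1, an adaptor for the engulfment of apoptotic cells, Phlda2, an imprinted gene of the placenta, Cacnb1, a calcium channel subunit, and Entpd4, a nucleotidase, completed this group with log2 fold changes of 1.40, 1.29, 0.98 and 1.55. Their levels were low, at most 20.04 CPM in any library.

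Among genes with wide gaps and lower KO values, Chil3, a chitinase-like protein of neutrophils and macrophages, stood at 124 and 66.9 CPM in WT and at 28.1 and 28.8 CPM in KO. Nlrp3, the sensor of an inflammasome that matures interleukin-1, stood at 37.9 and 39.6 CPM in WT and 19.9 and 16.3 CPM in KO, a log2 fold change of -1.10 (SE 0.17). The KO libraries had about the same distance from either WT library. Kcnj2, an inward-rectifier potassium channel, stood at 7.01 and 5.24 CPM in WT and 1.79 and 1.82 CPM in KO. Apba1, an adaptor of vesicle transport, stood at 20.1 and 16.5 CPM in WT and 8.53 and 7.96 CPM in KO. Ccl5, a chemokine, stood at 5.96 and 5.62 CPM in WT and 2.36 and 2.72 CPM in KO.

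**Figure D1:**
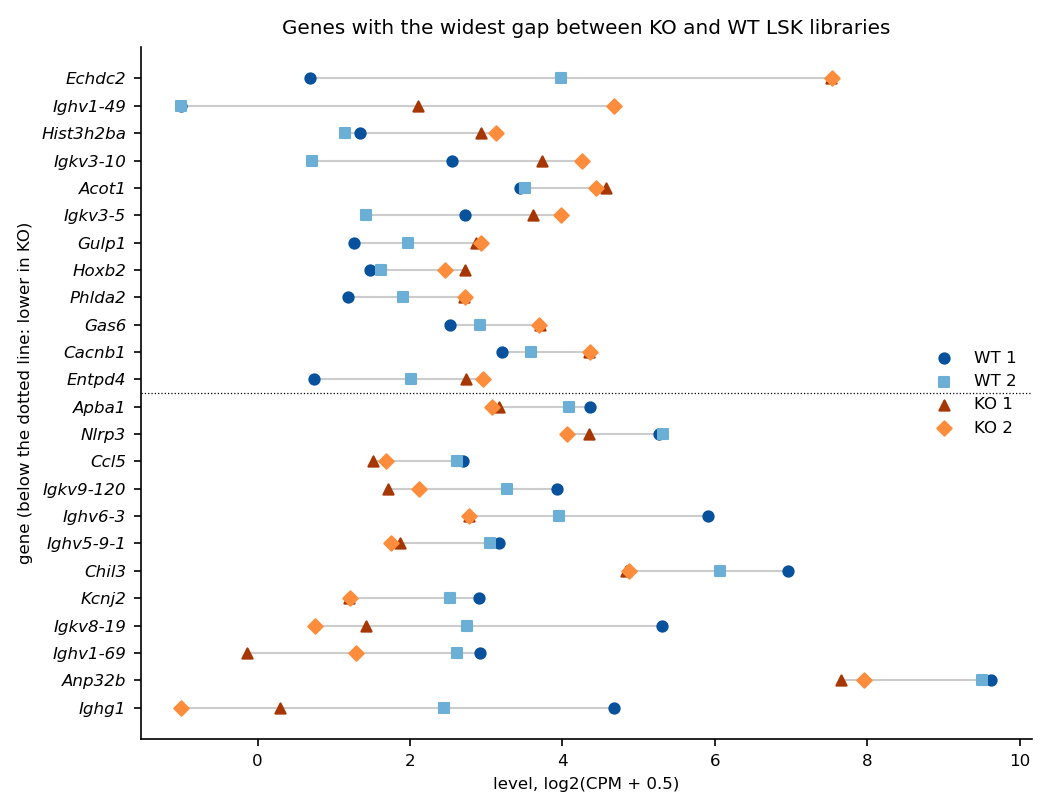
Levels of the 24 genes with the widest gap between the groups, as log2(CPM + 0.5) on the horizontal axis, with 1 symbol per library. Genes above the dotted line were higher in KO and genes below it lower. Echdc2 has the widest gap, its KO symbols coincide near 184 and 186 CPM, and the WT symbols of segments such as Igkv8-19 and Ighv6-3 lie far apart.

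The remaining genes with wide gaps were immunoglobulin segments, which B-lineage cells rearrange and express. Ighv1-49 was not read in WT 1 or WT 2 (0 counts each), against 47 counts in KO 1 and 358 in KO 2. Ighg1, a class-switched constant region, stood at 25.2 and 4.96 CPM in WT and at 0.731 CPM in KO 1, and had 0 counts in KO 2. Segments went both ways: of 145 tested, 13 were higher (8.97%) and 20 lower (13.8%) in both KO libraries, both below the shares of all tested genes. Many segments resemble each other closely, which leaves the assignment of reads among them uncertain.

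Transcripts of mature neutrophils were lower in the KO libraries. Of 24 tested markers (26 in the list, 25 listed in the tables), 16 lay below both WT libraries in both KO libraries and 2 above, against 15.6% and 17.7% of all tested genes. The median difference was -0.49 on the log2(CPM + 0.5) scale, and it was -0.51 against WT 1 and -0.54 against WT 2, while the median over all tested genes was within 0.01 of 0 in each case. S100a9, which with S100a8 forms calprotectin, stood at 345 and 367 CPM in WT and 238 and 239 CPM in KO. Its partner S100a8 stood at 183 and 188 CPM in WT and 127 and 140 CPM in KO. The values of each group lay close together for both subunits, and the groups did not overlap.

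Secondary granule genes followed. Ngp stood at 395 and 304 CPM in WT and 244 and 189 CPM in KO, and Lcn2, an iron-siderophore-binding protein, at 91.8 and 94.4 CPM in WT and 68.1 and 46.7 CPM in KO. Camp, the cathelicidin precursor, stood at 69.3 and 91.6 CPM in WT and 61.8 and 59.6 CPM in KO. KO 2 was the lower KO library for each of these 3 genes. Ltf, lactoferrin, stood at 95.9 and 113 CPM in WT and at 90.7 and 47.3 CPM in KO, so KO 1 came close to the WT range. The 2 members above both WT libraries were Itgam and Padi4, a peptidylarginine deiminase, at 87.0 and 97.7 CPM in WT and 108 and 107 CPM in KO. Ly6g, the defining surface marker of neutrophils, was near the floor of 3 counts in KO 2 (6 counts). In bulk libraries fewer cells of a type and less RNA per cell cannot be told apart.

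Medians below 0 were also found for other mature myeloid lists. Of 21 tested markers of monocytes, macrophages and dendritic cells, 10 were lower (47.6%) and 1 higher (4.76%) in both KO libraries, with a median of -0.54 (-0.55 against WT 1 and -0.35 against WT 2). Mpeg1, a pore-forming protein of macrophages, stood at 275 and 204 CPM in WT and 156 and 161 CPM in KO. Clec9a, a receptor of cross-presenting dendritic cells, stood at 21.3 and 21.2 CPM in WT and 12.8 and 16.3 CPM in KO. Ccr2, the chemokine receptor of inflammatory monocytes, stood at 53.4 and 56.1 CPM in WT and 50.3 and 66.0 CPM in KO, and its groups overlapped.

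Of 19 tested markers of basophils, mast cells and eosinophils, 8 were lower (42.1%) and 0 higher in both KO libraries, with a median of -0.50 (-0.66 against WT 1 and -0.39 against WT 2). Fcer1g, the signalling chain of Fc receptors, stood at 42.8 and 38.2 CPM in WT and 27.5 and 29.5 CPM in KO, and Hdc, which makes histamine, at 48.3 and 41.9 CPM in WT and 28.0 and 36.2 CPM in KO. KO 1 decided the size of this median, which was -0.84 without KO 2 and -0.27 without KO 1. Genes of MHC class II antigen presentation had a median of -0.35 over 10 tested members (-0.41 against WT 1 and -0.22 against WT 2), of which 5 (50%) were lower and 1 (10%) higher in both KO libraries. It was -0.22 without KO 1, -0.51 without KO 2 and -0.23 without WT 1. Cd74, the invariant chain, stood at 950 and 560 CPM in WT and 414 and 538 CPM in KO, so WT 2 and KO 2 nearly met. Against WT 1 alone 8 members were lower in both KO libraries and against WT 2 alone 5, where 38.6% and 34.3% of all tested genes were.

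Genes of granulocyte-monocyte progenitors mostly had lower KO means, with 21 of 24 tested members below 0 and 3 above. Of 24 tested members of the myeloid progenitor list 7 were lower (29.2%) and 2 higher (8.33%) in both KO libraries, with a median of -0.20 (-0.35 against WT 1 and -0.13 against WT 2). It was -0.097 without KO 1 and -0.38 without KO 2. Mpo, myeloperoxidase, stood at 6031 and 4487 CPM in WT and 3099 and 4125 CPM in KO. Elane, neutrophil elastase, stood at 1079 and 849 CPM in WT and 650 and 1080 CPM in KO, and its groups overlapped. Cebpb, a transcription factor of emergency granulopoiesis, had higher values in KO (38.2 and 54.0 CPM in WT, 59.0 and 69.3 CPM in KO).

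The promoters of the neutrophil and mitosis genes are shown for the letters of known regulators. C/EBP factors drive granule genes through sites of the form TTNNGCAA, and the CCAAT box and the CHR element TTTGAA are known from promoters of late cell cycle genes. RefSeq windows (GRCm38.p6) of 250 bases before to 50 bases after the start were searched on both strands, with 9680 of the 14598 tested genes matched. TTNNGCAA was found in 9 of 22 windows of the neutrophil list (40.9%) and in 8.26% of all windows. Of the other motifs searched in this list, TATAAA was found in 11 windows (50%, against 6.87% of all) and the PU.1 motif GAGGAAGT in 3 (13.6%, against 3.46%). CCAAT was found in 12 (54.5%, against 38.9%) and TTTGAA in 5 (22.7%, against 11.9%). In the other lists searched, TTNNGCAA was found in 5 of 29 stem cell windows (17.2%), 1 of 19 erythroid windows (5.26%) and 0 of 36 mitosis windows. The overlap of these letters with other sites was not examined, and a match is a description of letters only. Shown are the 250 bases before the start of 3 neutrophil genes, S100a9 (chr3:90695722-90695971, minus strand), Lcn2 (chr2:32387740-32387989, minus strand) and Ngp (chr9:110419558-110419807, plus strand), with capitals at each match to TTNNGCAA.
S100a9: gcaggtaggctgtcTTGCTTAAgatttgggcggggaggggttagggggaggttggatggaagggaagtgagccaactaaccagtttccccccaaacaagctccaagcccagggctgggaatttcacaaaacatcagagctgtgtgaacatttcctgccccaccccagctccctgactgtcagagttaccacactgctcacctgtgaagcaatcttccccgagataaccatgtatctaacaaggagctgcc
Lcn2: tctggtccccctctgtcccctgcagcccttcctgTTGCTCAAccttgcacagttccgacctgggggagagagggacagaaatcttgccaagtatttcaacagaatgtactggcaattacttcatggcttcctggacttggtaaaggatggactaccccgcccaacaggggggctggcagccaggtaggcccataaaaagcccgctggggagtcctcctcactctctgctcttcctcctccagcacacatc
Ngp: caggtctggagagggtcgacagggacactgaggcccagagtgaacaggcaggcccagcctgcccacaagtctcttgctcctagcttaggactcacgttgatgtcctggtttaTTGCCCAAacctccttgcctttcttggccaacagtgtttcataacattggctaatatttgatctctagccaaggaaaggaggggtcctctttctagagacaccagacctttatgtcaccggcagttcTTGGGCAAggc

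In the G2/M and mitosis list CCAAT was found in 28 of 36 windows (77.8%, against 38.9% of all windows) and TTTGAA in 26 (72.2%, against 11.9%). Shown are the 250 bases before the start of Mki67 (chr7:135716380-135716629, minus strand), Cdk1 (chr10:69352913-69353162, minus strand) and Ccnb1 (chr13:100786487-100786736, minus strand), with capitals at CCAAT and TTTGAA on either strand. Mki67 and Cdk1 each held 3 matches to CCAAT and 2 to TTTGAA, and Ccnb1 2 and 0.
Mki67: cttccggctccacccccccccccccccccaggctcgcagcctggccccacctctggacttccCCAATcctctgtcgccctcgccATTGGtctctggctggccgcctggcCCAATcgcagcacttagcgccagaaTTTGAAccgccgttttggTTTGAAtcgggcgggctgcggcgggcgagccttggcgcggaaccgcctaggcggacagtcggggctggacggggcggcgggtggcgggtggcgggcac
Cdk1: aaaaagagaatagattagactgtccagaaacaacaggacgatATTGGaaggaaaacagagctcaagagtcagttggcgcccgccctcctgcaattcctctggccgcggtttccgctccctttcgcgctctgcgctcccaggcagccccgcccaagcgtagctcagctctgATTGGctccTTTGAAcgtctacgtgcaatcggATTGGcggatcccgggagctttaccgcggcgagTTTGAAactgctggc
Ccnb1: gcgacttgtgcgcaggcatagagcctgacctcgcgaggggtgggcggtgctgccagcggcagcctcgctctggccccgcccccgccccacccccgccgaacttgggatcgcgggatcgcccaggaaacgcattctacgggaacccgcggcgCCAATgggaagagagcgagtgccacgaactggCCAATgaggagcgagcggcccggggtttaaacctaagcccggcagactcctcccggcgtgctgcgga

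Genes of mitosis and the G2/M phase had lower KO means throughout. All 42 tested members had a difference below 0, from -0.69 to -0.021, with a median of -0.25, and 18 of them (42.9%) were lower in both KO libraries than in both WT libraries (0 higher). The size depended on the WT library, at -0.39 against WT 1 and -0.054 against WT 2, and 40 members lay below WT 1 in both KO libraries against 20 below WT 2. Among all tested genes, 38.6% lay below WT 1 and 34.3% below WT 2. Mki67, which encodes the Ki-67 antigen of dividing cells, stood at 820 and 818 CPM in WT and 614 and 643 CPM in KO. Cks2, a subunit of cyclin-dependent kinases, stood at 79.3 and 84.1 CPM in WT and 44.6 and 57.3 CPM in KO. Both had nearly equal WT values.

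Cdk1, the mitotic kinase, stood at 98.3 and 102 CPM in WT and 77.0 and 81.5 CPM in KO. Ccnb1, cyclin B1, stood at 69.1 and 51.6 CPM in WT and 44.2 and 36.1 CPM in KO. Others differed only from WT 1: Top2a, topoisomerase II, stood at 610 and 439 CPM in WT and 420 and 433 CPM in KO, and Ccna2, cyclin A2, at 203 and 143 CPM in WT and 126 and 145 CPM in KO. Genes of DNA replication at the G1/S border had a median of -0.029 over 47 members, with 5 higher (10.6%) and 11 lower (23.4%), at -0.035 against WT 1 and -0.042 against WT 2. Ccnd1 and Ccnd2, D-type cyclins of G1, had higher KO values: Ccnd1 stood at 23.0 and 33.0 CPM in WT and 46.9 and 40.9 CPM in KO, and Ccnd2 at 130 and 140 CPM in WT and 183 and 165 CPM in KO. Cdk6, their kinase, stood at 553 and 636 CPM in WT and 500 and 445 CPM in KO. The list of G1 regulators had a median of 0.11 over 18 tested members, at 0.045 against WT 1 and 0.055 against WT 2. In both KO libraries 4 of its members were higher (22.2%) and 1 lower (5.56%), against 17.7% and 15.6% of all tested genes.

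Genes of hematopoietic stem cells tended the other way. Of 40 tested members 18 were higher (45%) and 4 lower (10%) in both KO libraries, and 33 had a higher KO mean. The median was 0.24, at 0.33 against WT 1 and 0.12 against WT 2, and both KO libraries lay above WT 1 for 30 members and above WT 2 for 21, where 39.6% and 36.7% of all tested genes did. Tal1, a transcription factor required to form the blood system, stood at 68.2 and 99.9 CPM in WT and 128 and 132 CPM in KO. Prdm16, a regulator of stem cell maintenance, stood at 27.4 and 22.7 CPM in WT and 39.4 and 40.2 CPM in KO. Hlf, a transcription factor used as a stem cell marker, stood at 178 and 197 CPM in WT and 239 and 237 CPM in KO.

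Surface markers of the same list included Procr, the protein C receptor EPCR, at 22.0 and 21.1 CPM in WT and 27.1 and 29.7 CPM in KO, and Esam, an adhesion molecule, at 17.2 and 19.5 CPM in WT and 28.3 and 25.9 CPM in KO. Fgd5, a marker of long-term stem cells, stood at 22.4 and 26.9 CPM in WT and 42.1 and 32.6 CPM in KO. The groups did not overlap for any of the 3. These genes were named for a small p or after their values were seen, so this adds nothing to the list counts. Higher KO values without overlap were not found for all defining genes. Meis1 stood at 162 and 172 CPM in WT and 169 and 170 CPM in KO, and Slamf1 (CD150), which marks stem cells within the gate, at 7.20 and 8.10 CPM in WT and 8.78 and 8.03 CPM in KO. Besides Ly6a, the members below both WT libraries were Thy1, Fli1 and Txnip. Thy1 stood at 21.0 and 9.34 CPM in WT and 6.66 and 8.45 CPM in KO.

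**Figure D2:**
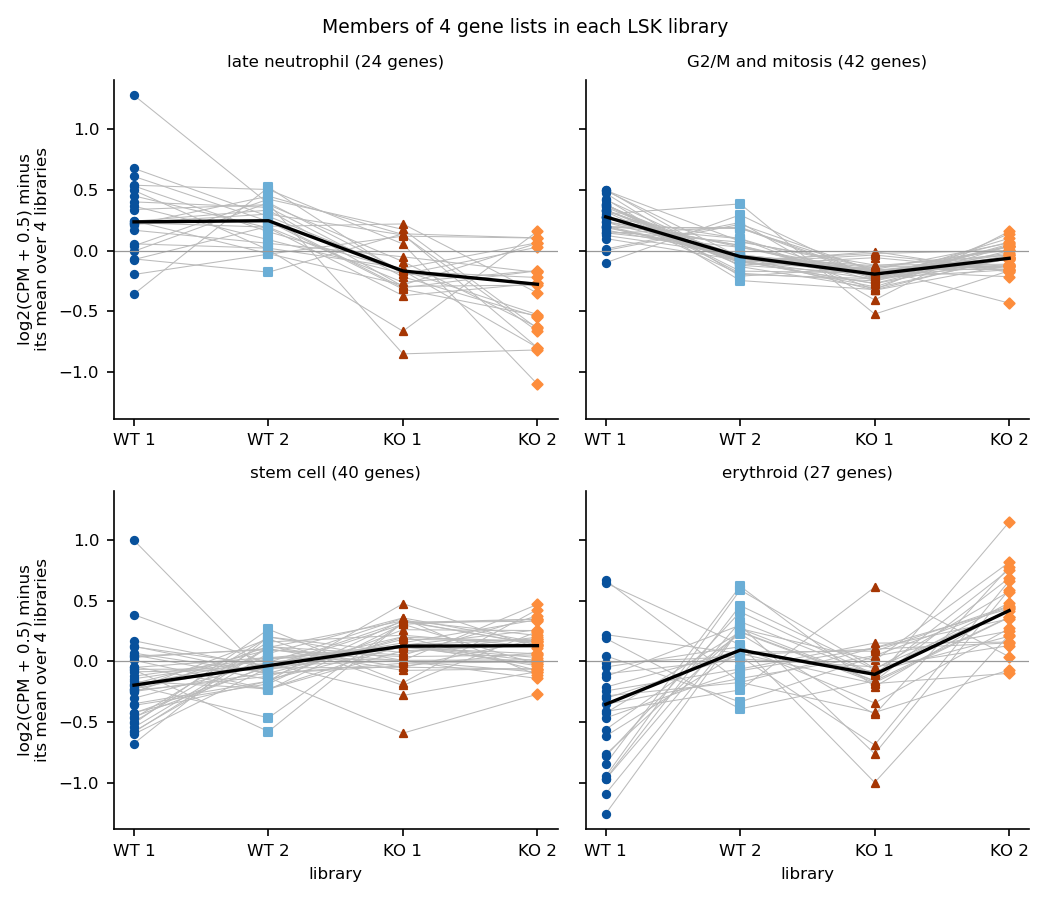
Each grey line is a gene of the named list, drawn as its log2(CPM + 0.5) minus its mean over the 4 libraries, and the black line is the median of the list. The neutrophil median falls from both WT libraries to both KO libraries, the mitosis median falls mainly from WT 1 (-0.39 against WT 1 and -0.054 against WT 2), the stem cell median is higher in both KO libraries and the erythroid median is high in KO 2.

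Erythroid genes had a median of 0.31 over 27 tested members, with 7 higher (25.9%) and 1 lower (3.70%) in both KO libraries. The value came from WT 1 and KO 2: it was 0.52 against WT 1 and -0.0042 against WT 2, and 0.097 without KO 2. Gata1, the master regulator of the lineage, stood at 16.6 and 19.4 CPM in WT and 22.1 and 29.4 CPM in KO. Klf1, an erythroid transcription factor, stood at 6.61 and 17.7 CPM in WT and 14.7 and 26.1 CPM in KO, with KO 1 between the WT libraries. The globin gene Hbb-bs, at 15.6 and 8.48 CPM in WT and 7.07 and 9.15 CPM in KO, overlapped as well. Nfe2, shared by the erythroid and megakaryocyte lineages, stood at 137 and 156 CPM in WT and 180 and 181 CPM in KO.

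Messenger RNAs of the mitochondrial genome were lower in the KO libraries. They took 3.05% and 3.11% of the counts in WT and 2.13% and 2.31% in KO. Of the 13 genes 10 were lower (76.9%) and 0 higher in both KO libraries, with a median of -0.57 (-0.72 against WT 1 and -0.44 against WT 2). ND1, a subunit of complex I, stood at 3764 and 3517 CPM in WT and 2365 and 2525 CPM in KO. CYTB, of complex III, stood at 5314 and 4999 CPM in WT and 3532 and 3842 CPM in KO, and COX1, of complex IV, at 13705 and 15792 CPM in WT and 10278 and 11123 CPM in KO. For each of these 3 genes both KO values lay below both WT values. Respiratory chain subunits encoded in the nucleus did not share the difference, with a median of 0.0087 over 80 genes, 12 higher (15%) and 9 lower (11.3%). A share of mitochondrial reads also moves with RNA quality and with the handling of cells, which was not tested.

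The lists of the p53 pathway, named in the title of the study, had medians of opposite sign against WT 1 and WT 2. Of 39 tested p53 targets 5 were higher and 5 lower in both KO libraries, shares of 12.8% each against 17.7% and 15.6% of all genes, and the median was 0.018 (0.074 against WT 1 and -0.090 against WT 2). Cdkn1a, the gene of the cyclin-dependent kinase inhibitor p21, stood at 247 and 92.0 CPM in WT and 114 and 86.2 CPM in KO. WT 1 alone was high, so that its log2 fold change of -0.76 (SE 0.40) was -1.30 without WT 2 and 0.11 without WT 1. Mdm2, the ubiquitin ligase of p53 and itself a target, stood at 129 and 141 CPM in WT and 116 and 111 CPM in KO, a log2 fold change of -0.25 (SE 0.13). Pmaip1, the apoptosis inducer Noxa, had the smallest unadjusted p of the list and stood at 96.3 and 65.8 CPM in WT and 44.3 and 42.5 CPM in KO. Zmat3, an RNA-binding p53 target, stood at 4.52 and 3.53 CPM in WT and 5.85 and 6.91 CPM in KO. Regulators of p53 had a median of -0.022 over 19 genes (0.033 against WT 1 and -0.10 against WT 2), with 1 higher (5.26%) and 5 lower (26.3%). Against WT 2 alone 12 regulators were lower in both KO libraries and 2 higher, and against WT 1 alone 6 and 9. For the targets these counts were 17 and 11 against WT 2, and 14 and 18 against WT 1. Of all tested genes 34.3% were lower and 36.7% higher against WT 2 alone. The BCL2 family had a median of -0.038 over 20 genes (-0.14 against WT 1 and 0.0085 against WT 2), with 4 higher and 4 lower (20% each).

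Inflammasome and PYHIN genes held several members with lower values. Of 22 tested, 6 were lower (27.3%) and 0 higher in both KO libraries, with a median of -0.13. The median depended on the WT library, at -0.029 against WT 1 and -0.34 against WT 2. Pyhin1, an interferon-inducible nuclear protein, stood at 39.0 and 52.3 CPM in WT and 21.7 and 18.2 CPM in KO. Mefv, pyrin, stood at 20.5 and 21.5 CPM in WT and 12.9 and 11.4 CPM in KO, and Ifi205 at 22.0 and 18.2 CPM in WT and 10.8 and 12.4 CPM in KO. The DNA sensor Aim2 stood at 79.4 and 132 CPM in WT and 110 and 103 CPM in KO, between the WT libraries. Interferon-stimulated genes as a list had a median of -0.072, at 0.22 against WT 1 and -0.38 against WT 2.

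**Figure D3:**
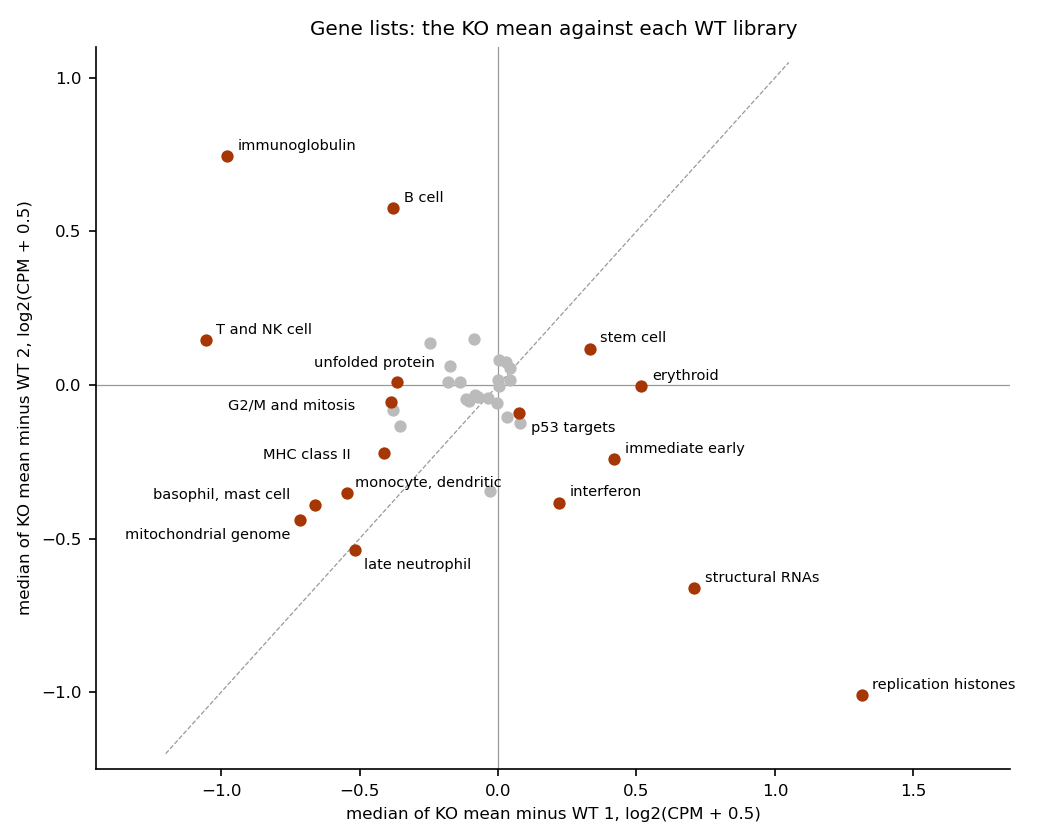
Each point is a gene list, with the median of KO mean minus WT 1 on the horizontal axis and of KO mean minus WT 2 on the vertical axis, both on the log2(CPM + 0.5) scale. Labelled lists at the lower left, such as late neutrophil (-0.51 and -0.54), were lower in KO than either WT library, while replication histones (1.31 and -1.01) and immunoglobulin (-0.98 and 0.75) lie on opposite sides of 0.

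Several lists separated the WT libraries, with the KO libraries between them. Replication-dependent histone genes, whose transcripts mostly lack a poly(A) tail, summed to 368 CPM in WT 1, 917 CPM in WT 2, 644 CPM in KO 1 and 547 CPM in KO 2. Of 60 tested, 36 followed the order WT 1, KO 2, KO 1, WT 2 from low to high, where 7.21% of all tested genes did. Hist1h4d stood at 0.524 and 16.7 CPM in WT and 9.59 and 6.70 CPM in KO. Small structural RNAs followed the same order in their sum, at 512, 10331, 5814 and 3509 CPM in WT 1, WT 2, KO 1 and KO 2. Rn7sk, the 7SK RNA, stood at 10.5 and 508 CPM in WT and 181 and 91.4 CPM in KO, and Rpph1, the RNA of RNase P, at 8.77 and 459 CPM in WT and 165 and 102 CPM in KO. Neither RNA carries a poly(A) tail.

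Immediate-early genes, which respond within minutes to stress and to the handling of cells, showed the same order in their sum (21519, 39728, 35900 and 31217 CPM in WT 1, WT 2, KO 1 and KO 2). Fos stood at 1466 and 4342 CPM in WT and 2976 and 2795 CPM in KO, and Dusp1, a phosphatase of MAP kinases, at 511 and 1339 CPM in WT and 1039 and 880 CPM in KO. The immunoglobulin list ran the opposite way, at 14779, 3208, 5198 and 6415 CPM in the same order of libraries, and the T and NK cell list had a median of -1.05 against WT 1 and 0.15 against WT 2. Ccr7, a homing receptor of lymphocytes, stood at 17.5 CPM in WT 1, 2.19 CPM in WT 2, 1.38 CPM in KO 1 and 1.33 CPM in KO 2. Over all tested genes the KO mean lay between the WT values for 6654. For these lists the mean of the WT libraries describes neither of them, and a KO difference was not measurable beyond their spread.

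**Figure D4:**
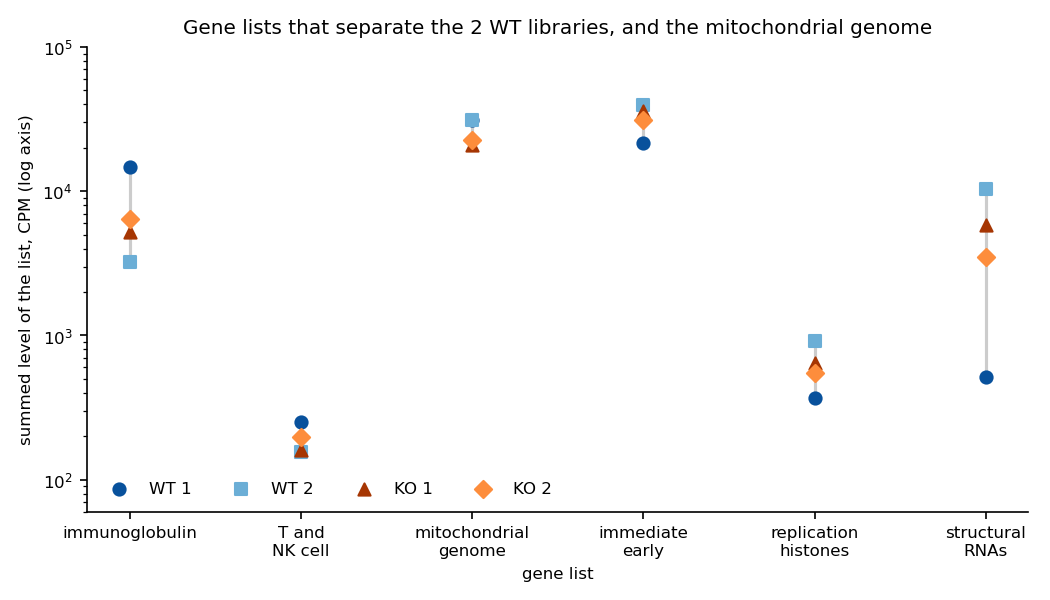
Summed CPM of 6 gene lists on a log axis, with 1 symbol per library. Histones, structural RNAs and immediate-early genes have WT 1 lowest and WT 2 highest (368 and 917 CPM for histones), immunoglobulin the reverse (14779 and 3208 CPM), and the mitochondrial genome has both WT libraries above both KO libraries.

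Composition of the transcripts moved with the comparison. Of 5 equal groups of genes by GC content of the longest annotated transcript (13260 tested genes matched), in that with the highest content the median difference was 0.10, at 0.18 against WT 1 and 0.036 against WT 2. In the group with the lowest GC content it was -0.055. By transcript length the medians of 5 such groups ran from -0.036 for the longest to 0.026 for the shortest. The part of GC content in the stem cell, mitosis or mitochondrial differences was not tested.

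Genes near Anp32b on chromosome 4 were looked at because flanking sequence travels with an engineered allele. Of 82 tested genes that start within 5 megabases (Mb), 21 (25.6%) were higher and 7 (8.54%) lower in both KO libraries, against 15 and 17 of 97 genes between 5 and 20 Mb away. The median within 5 Mb was 0.055. Hemgn, an erythroid and stem cell nuclear protein next to Anp32b, stood at 16.6 and 17.9 CPM in WT and 21.9 and 26.0 CPM in KO. Tpm2, a tropomyosin 2.93 Mb before Anp32b, stood at 7.66 and 6.67 CPM in WT and 13.2 and 12.6 CPM in KO. Kif24, a centriolar kinesin, stood at 22.5 and 21.3 CPM in WT and 15.8 and 12.9 CPM in KO. Echdc2 lies on the same chromosome, 61.7 Mb beyond Anp32b, and Tal1 and Prdm16 are on it too. Of the 805 tested genes of the chromosome 6 were at least 2-fold apart with no overlap, where 138 of all 14598 tested genes were. These 6 were Anp32b, 2 of the 82 within 5 Mb, 0 of the 97 between 5 and 20 Mb and 3 of 625 farther away. On the chromosome 19.1% were higher and 14.4% lower in both KO libraries, near the 17.7% and 15.6% of all tested genes.

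**Figure D5:**
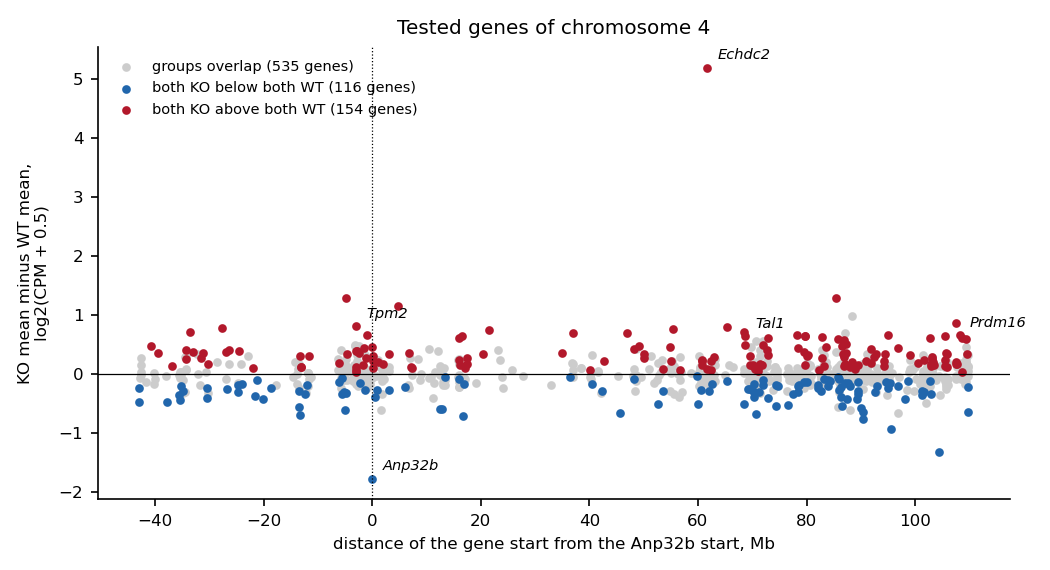
Tested genes of chromosome 4 by the distance of their start from that of Anp32b in megabases (Mb), with the difference of KO and WT means on the log2(CPM + 0.5) scale. Coloured points mark genes whose groups do not overlap. Anp32b is the lowest point and Echdc2, 61.7 Mb away, the highest.

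Several other lists had medians near 0 when both WT libraries were averaged, and some of these lay on opposite sides of 0 against each. Farther from 0 were the unfolded protein response (21 of 23 tested members below 0) and stromal and endothelial markers (11 of 14), both given below. DNA repair genes had a median of -0.012 over 39, at 0.078 against WT 1 and -0.12 against WT 2, with 2 higher (5.13%) and 8 lower (20.5%). Glycolysis and hypoxia genes had one of -0.0098 over 31, at -0.088 against WT 1 and 0.15 against WT 2. Cytoplasmic ribosomal proteins had a median of -0.016 over 79 genes (-0.0021 and -0.059 against WT 1 and WT 2), with 11 higher (13.9%) and 20 lower (25.3%), and chromatin and DNA methylation genes 0.024 over 27 (0.042 and 0.016). Genes of the unfolded protein response had a median of -0.18 over 23, with 0 higher and 5 lower (21.7%), but it was -0.36 against WT 1 and 0.011 against WT 2, and -0.037 without KO 1. Calr, an endoplasmic reticulum chaperone, stood at 2233 and 1924 CPM in WT and 1464 and 1737 CPM in KO. Homing and adhesion genes had a median of -0.089 over 20 (-0.18 against WT 1 and 0.010 against WT 2), and Cxcr4, the receptor that holds stem cells in the marrow, stood at 186 and 68.9 CPM in WT and 66.5 and 54.0 CPM in KO, so that only WT 1 was far from the KO values. Stromal and endothelial markers had a median of -0.23 over 14, with 5 lower (35.7%) and 1 higher (7.14%). It was -0.38 against WT 1 and -0.083 against WT 2, and -0.14 without KO 1. Col1a1 and Col1a2, the chains of type I collagen, stood at 24.8 and 25.0 CPM and at 30.8 and 32.0 CPM in WT, and at 15.8 and 11.9 CPM and 20.5 and 20.2 CPM in KO.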

How the data were processed

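RNA was extracted from the mouse LSK cells with Trizol and total RNA entered Illumina libraries, per the labels' protocols. The authors deposited raw counts by gene symbol, as whole numbers, with 1 table per library. HISAT2, TopHat, Cufflinks, DESeq and GRCm38 are named, without roles, per the submitters' processing notes. Neither the counting tool nor its strand setting or annotation is stated there, so reads of overlapping or antisense partners cannot be separated. The lowest sum of a listed gene over the 4 libraries is 10 counts. The 4 human libraries of the series were not used here.

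The counts were fitted with edgeR 4.0.16 in R 4.3.3 (filterByExpr, TMM, quasi-likelihood test, Benjamini-Hochberg over all tested genes, threshold 0.05) and checked with DESeq2 1.42.0 and limma 3.58.1. CPM used TMM-scaled library sizes, and log2 levels a pseudocount of 0.5 CPM. An exact test of 2 against 2 libraries cannot give a p below 0.333. Floors cover counting error only. Groups do not overlap where both KO values lie above, or both below, both WT values.

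The members and gene lists were chosen with earlier results of these data known. Named genes follow a rule: Anp32b, its paralogs and p53 genes, the 12 higher and 12 lower with the widest gap, up to 4 per list by p and 4 by level, the 10 farthest apart in each WT library, up to 6 on chromosome 4, and gate markers. Predicted genes were skipped, and some genes the rule takes are not reported here. Other names, among them Camp, Ltf, Padi4, Hlf, Procr, Thy1, Fli1, Meis1, Klf1, Hbb-bs, Dusp1, Xist and Ddx3y, the structural RNA list, the library orders, the GC comparison and the promoter motifs were chosen after values were seen. The mitochondrial and immunoglobulin patterns were corrected to the symbols in the tables. Gene positions came from GENCODE (GRCm38).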

Additional observations from a re-analysis of the deposited data

How the results depend on the processing

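With all libraries 0 genes passed under RLE scaling, library totals, no filter or a mean of at least 50 counts. DESeq2 called 12 genes, limma-voom with sample quality weights 2, and the fit without immunoglobulin, mitochondrial and Rn18s genes 1. The Anp32b log2 fold change was -1.77 with DESeq2 (adjusted p = 1.46e-22), -1.76 with voom weights (adjusted p = 0.0133) and -1.76 without those genes (adjusted p = 0.0492). A replicate block on the labels' numbers called 15 genes and gave Anp32b -1.77 (adjusted p = 0.00321). The same-numbered libraries did not deviate together (correlation across genes of WT 1 minus WT 2 with KO 1 minus KO 2 of -0.075). With a WT pair that differed more than the KO pair, this correlation cannot decide whether the numbers pair the samples. Leaving out each library gave 0 to 583 genes (26 without WT 1, 583 without WT 2, 1 without KO 1, 0 without KO 2), an Anp32b value of -1.92 to -1.62 and a Cdkn1a value of -1.30 to 0.11, the sign turning without WT 1. Medians ran from 0.11 to 0.33 for stem cell, -0.014 to 0.55 for erythroid, -0.55 to -0.43 for late neutrophil, -0.84 to -0.27 for basophil and -0.39 to -0.064 for G2/M genes. The neutrophil median was -0.44 on library totals. Genes with no overlap numbered 138 when the means also had to lie 2-fold apart, since fewer genes meet that condition. The other causes were not tested. With 2 libraries per group and a WT pair that differed more than the KO pair, small differences were not detectable. Large ones missed the threshold too. In the main edgeR quasi-likelihood test Anp32b had a log2 fold change of -1.76 (adjusted p = 0.148) and Echdc2 one of 4.59 (adjusted p = 0.894). The 0 calls of that fit therefore do not exclude large differences.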
